A study of Mus musculus with 12 samples.

Results

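A set of 266 genes in mouse splenic B cells had higher mRNA abundance after DNA damage by etoposide and lower abundance when the inhibitor KU55933 was added before the damage. The genes were chosen by their measured levels among the 29486 genes of the mRNAseq table. Each library was scaled to a total of 1000000, in a unit called CPM here, and the 4 libraries of a group were averaged. A member had at least 0.5 CPM with LPS and at least 4 CPM with LPS+etoposide, a log2 ratio of LPS+etoposide to LPS of at least 1.5 (2.83-fold), and a log2 ratio of LPS+KU55933+etoposide to LPS+etoposide of at most −0.8 (1.74-fold lower). Immunoglobulin variable segments were left out by name. Both level limits were met by 10856 genes, of which 686 (6.32%) passed the limit on the etoposide ratio and are called induced here. The limit on the KU55933 ratio was passed by 395 (3.64%). Both were passed by 266 (2.45%), which is 38.8% of the induced genes. The other 420 induced genes are used for comparison.

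The cells were purified from spleens of C57BL/6Babr mice and cultured with the mitogen LPS at 10 µg/ml. The 3 groups had 4 libraries each. The LPS group received LPS for 48 h, the LPS+etoposide group LPS for 48 h and then 20 µM etoposide for 4 h, and the LPS+KU55933+etoposide group LPS for 47 h, 10 µM KU55933 for 1 h and then the same etoposide treatment. No group received KU55933 without etoposide, and whether the LPS group was harvested at 48 h or kept for the 4 h of the etoposide treatment is not stated in the labels. All groups shared LPS activation, and the comparisons describe damage in B cells after mitogen. The Illumina indexes of each group were used in no other group, so index and treatment cannot be told apart.

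Etoposide traps topoisomerase II on DNA and leaves double-strand breaks. The kinase ATM is recruited to such breaks and phosphorylates many proteins, among them p53, which binds the promoters of genes for cell cycle arrest, death, repair and metabolism. KU55933 inhibits ATM. In B cells breaks also arise during antibody class switching, and ATM and p53 are known for limiting the growth of cells in which they persist.

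The deposited values held no spread between replicates. After scaling, the 4 columns of a group differed by at most 1.4e-14 on the log2 scale. Each column is the mean fitted for the group times a factor per library. The columns therefore repeat a fitted value and do not show that the replicates agreed. For that reason, and since the members were selected on these ratios, levels and ratios are given as a description without a test. In units of 1000000 fitted counts, column totals were 20.7 to 23.9 with LPS, 22.5 to 30.6 with LPS+etoposide and 20.4 to 25.1 with LPS+KU55933+etoposide. The 6 B cell markers summed to 5267, 3156 and 3672 CPM in the same order. The 6 T cell, 4 neutrophil and 2 listed NK cell markers summed to at most 0.978, 0.647 and 0.063 CPM in any group. The 3 dendritic cell markers summed to 110.6, 71.5 and 131.1 CPM, of which Flt3 made up 110.4, 71.3 and 130.9 CPM. The 4 red cell markers summed to 6.18, 6.17 and 3.86 CPM. The part of such cells in the results was not tested. In bulk RNA, fewer cells of a kind and less RNA per cell cannot be told apart.

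Most members were genes of low level with LPS. Their summed level was 2289.7 CPM with LPS, 13856 CPM with LPS+etoposide and 6672 CPM with LPS+KU55933+etoposide. The median member was at 3.07 CPM with LPS (range 0.504 to 286.8), at 21.4 CPM with etoposide (4.15 to 884) and at 9.27 CPM with KU55933 and etoposide (0.983 to 466). The log2 ratio of LPS+etoposide to LPS had a median of 2.61 (6.12-fold) and a highest value of 6.55 (93.8-fold), against a median of 0.05 over all genes at the level limits. The log2 ratio of LPS+KU55933+etoposide to LPS+etoposide had a median of −1.07 (2.11-fold lower) and a lowest value of −2.50 (5.67-fold lower), against a median of 0.02 over all genes at the level limits. Of the members, 38 had an etoposide ratio of at least 4 on the log2 scale and 61 a ratio under 2. For 99 members the KU55933 ratio lay between −1 and −0.8, and for 16 it was −2 or lower.

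**Figure D1:**
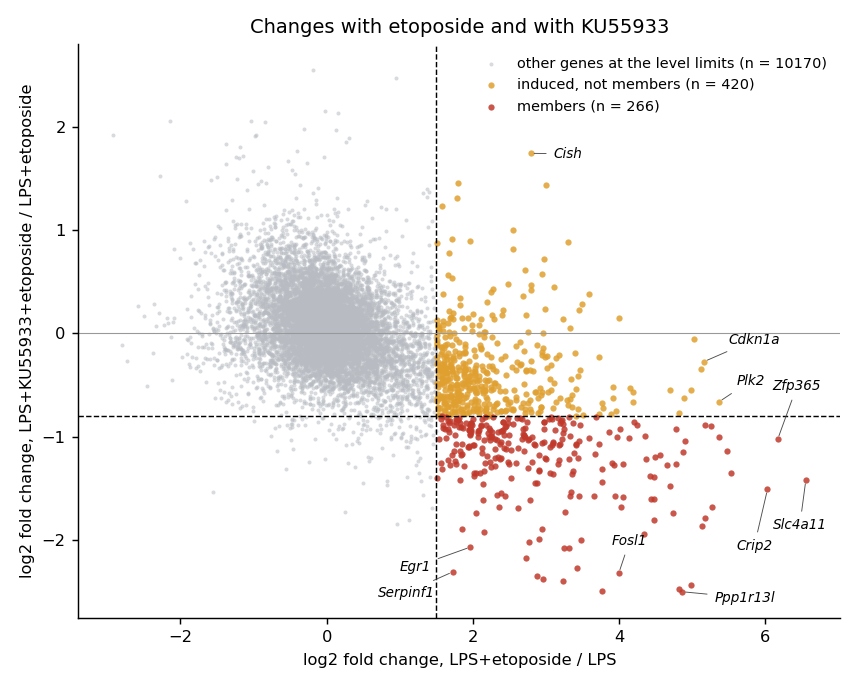
Each point is 1 of the 10856 genes at the level limits, with the log2 ratio of LPS+etoposide to LPS on the x axis and that of LPS+KU55933+etoposide to LPS+etoposide on the y axis. Dashed lines mark the limits of 1.5 and −0.8, and the 266 members fill the lower right corner, from Serpinf1 near the left limit to Slc4a11 at 6.55.

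The limits cut through a continuous distribution. On the etoposide ratio, Piwil2 was the member nearest the limit at 1.51 and Abca1 the nearest gene outside it at 1.49. On the KU55933 ratio, Tas1r3 lay just inside at −0.803 and Lpin1 just outside at −0.799. On the level with etoposide, Mybpc3 was inside at 4.15 CPM and Ttn outside at 3.99 CPM. On the level with LPS, Slc4a11 was inside at 0.504 CPM and Evpl outside at 0.454 CPM. A further 805 genes passed both limits on the ratios and were under a level limit. The level limits kept a gene with 0.5 CPM under LPS only if it was high with etoposide, so the members of lowest LPS level had to have large ratios.

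Most members stayed above their LPS level when KU55933 was present. With KU55933 and etoposide, 192 members (72.2%) were still at least 2-fold above LPS, and 126 were still at least 1.5 above it on the log2 scale. To describe this, the log2 ratio of LPS+KU55933+etoposide to LPS was divided by that of LPS+etoposide to LPS and is called the share kept. Its median over the members was 55.8%, with quartiles of 46.5% and 65.7% and a range from −34.0% to 83.4%. The share was 50% or more for 179 members, 20% to under 50% for 76, 0 to under 20% for 8 and below 0 for 3. On the linear CPM scale the median share was 35.5% and the highest 53.4%. On that scale 253 members kept under 50%, of which 41 kept under 20%, and 13 kept 50% or more. The 420 other induced genes kept a median of 79.6% on the log2 scale, a difference that the choice of members fixes.

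**Figure D2:**
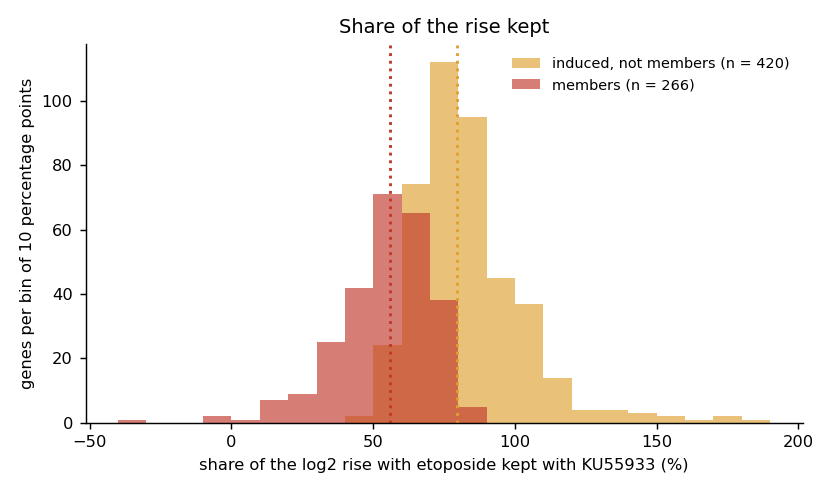
Histogram of the share of the log2 etoposide ratio kept with KU55933 (x axis, percent) for the 266 members and the 420 other induced genes, with the number of genes in bins of 10 percentage points on the y axis and dotted lines at the medians of 55.8% and 79.6%. The 2 distributions overlap between 48.4% and 83.4%.

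The members with the highest level under etoposide included several enzymes. Cad, which catalyses the first steps of pyrimidine synthesis, was at 286.8 CPM with LPS, 884 CPM with etoposide and 466 CPM with KU55933 and etoposide. Man2b1, a lysosomal mannosidase, was at 123, 490.5 and 265 CPM in the same order. Gcdh, which acts in lysine and tryptophan breakdown, was at 27.5, 279.6 and 96.3 CPM. These 3 genes were already expressed with LPS, and KU55933 left each of them above that level.

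Cep170b, related to a centrosomal protein, went from 22.2 CPM with LPS to 452 CPM with etoposide and 226 CPM with both agents. Prrg4, a transmembrane protein with a vitamin K-dependent domain, was at 6.74, 301 and 136 CPM. Abcb1b, a P-glycoprotein that pumps drugs out of cells, was at 37.5, 238.8 and 118 CPM. Its close paralog Abcb1a, also a member, was at 3.40, 14.9 and 8.38 CPM, and reads that fit both copies may have been split or dropped in counting. The other members among the 10 of highest CPM were Pidd1, the phosphatase subunit Ppp2r5d, the Hippo pathway cofactor Mob1b and the semaphorin receptor Plxna1. Per kilobase of exonic sequence the order was different. The level with etoposide was then highest for Glipr1, a secreted CAP domain protein, at 139 CPM per kb, ahead of Cad at 108 and Gcdh at 102 CPM per kb.

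The largest ratios belonged to genes with a low level under LPS. Slc4a11, of the bicarbonate transporter family, was at 0.504 CPM with LPS, 47.2 CPM with etoposide and 17.6 CPM with both agents, a log2 ratio of 6.55 with etoposide and −1.42 with KU55933. Zfp365, a zinc finger gene linked to genome stability, was at 2.57, 184 and 90.6 CPM (log2 ratios 6.17 and −1.03). Crip2, a LIM domain protein, was at 0.946, 61.7 and 21.6 CPM (6.03 and −1.51). The level with KU55933 was still 22.8 to 35.3 times the LPS level in these 3 genes.

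The other genes among the 10 with the largest etoposide ratio covered varied functions. Dennd2c, a Rab exchange factor, had a log2 ratio of 5.53, Prrg4 5.48, the extracellular sulfatase Sulf2 5.36, the ATP-gated channel P2rx7 5.27, the epidermal factor Zfp750 5.25, the GTPase Rac3 5.18 and Kank3 5.17. Their KU55933 ratios ranged from −1.79 for Rac3 to −0.88 for Kank3. Zfp365, Zfp750, Kank3, Sulf2 and the adhesion molecule Pvrl4 had the highest shares kept of the members, at 83.4%, 82.9%, 82.9%, 81.3% and 80.6%. At a given KU55933 ratio this log2 share is higher the larger the etoposide ratio is. On the linear CPM scale the same genes kept 48.4%, 52.5%, 52.9%, 48.7% and 50.7%.

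**Figure D3:**
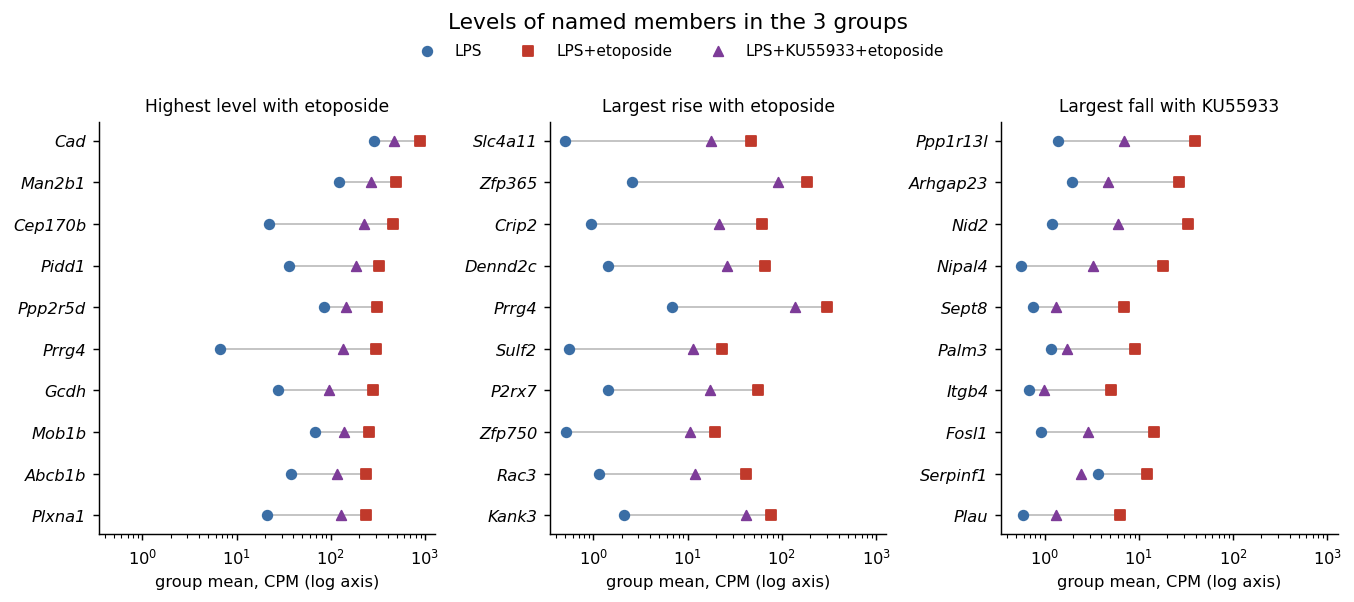
Group means in CPM (x axis, log scale) of the 10 members with the highest level under etoposide, the 10 with the largest etoposide ratio and the 10 with the lowest KU55933 ratio. Circles stand for LPS, squares for LPS+etoposide and triangles for LPS+KU55933+etoposide, and in all panels but for Serpinf1 the triangle lies between the circle and the square.

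Promoter sequences from RefSeq (GRCm38.p6, 250 bases before to 50 bases after the start) were matched for 197 members (74.1%), with 245 windows. Since under 80% of the members had a sequence, a comparison of base composition or motif content between the members and other genes is void, and the counts below only describe the windows at hand. The p53 response element is a pair of 10-base repeats with up to 13 bases between them. It was found with at most 2 mismatches to its consensus in 11 of 245 windows (4.49%). The share was 4.09% over all 32851 windows of the RefSeq set, which was not limited to genes expressed here. The following are the 4 elements with at most 1 base between the repeats, shown because they come nearest to the unspaced consensus. They are written 5′ to 3′ on the strand of the gene, with the repeats in capitals and a base between them in lower case.
Zfp365: AGACTAGGCTGGGCAAGACT
Depdc7: GGTCTAGCCCcGGGCTAGTAC
Dixdc1: GAGCATGCCCaGTGCAAGCCG
Sepn1: CAGCGAGTTTcAGGCTTGCCT

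The element of Zfp365 lies at chr10:67912706-67912725 on the minus strand, beginning 63 bases before the start of the gene that had the highest share kept, at 2.57, 184 and 90.6 CPM. That of Depdc7 lies at chr2:104742999-104743019 (minus strand), that of Dixdc1 at chr9:50727987-50728007 (minus strand) and that of Sepn1, which encodes a selenoprotein, at chr4:134552382-134552402 (minus strand). Depdc7 was at 1.81, 6.19 and 2.94 CPM, Dixdc1 at 0.764, 7.65 and 2.56 CPM, and Sepn1 at 4.49, 30.5 and 15.0 CPM. No member window held an element with at most 1 mismatch, and 0.627% of all windows did. On either strand, the AP-1 motif TGACTCA was present in 10 member windows (4.08%, against 5.20% of all windows), the CRE motif TGACGTCA in 6 (2.45% against 1.79%), the NF-kB motif in 20 (8.16% against 8.46%), CCAAT in 80 (32.7% against 37.4%) and TATAAA in 12 (4.90% against 13.6%). The shares of all windows include genes not expressed here, and differences from them are no result about the members. A match describes letters in a window and not a bound site.

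The lowest KU55933 ratios were found in another group of genes. Ppp1r13l, which encodes the p53 inhibitor iASPP, was at 1.37 CPM with LPS, 39.8 CPM with etoposide and 7.03 CPM with both agents, a log2 ratio of −2.50 with KU55933. Nid2, a basement membrane glycoprotein, was at 1.19, 33.5 and 6.01 CPM (−2.48). Arhgap23, a GTPase-activating protein, was at 1.93, 26.4 and 4.68 CPM (−2.49). These 3 genes lost more of the etoposide level than the median member but remained above LPS.

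Nipal4, a magnesium transporter homolog, had a log2 KU55933 ratio of −2.44, the septin Sept8 −2.40, the paralemmin Palm3 −2.38, the integrin subunit Itgb4 −2.35, the AP-1 subunit Fosl1 −2.32, the secreted factor Serpinf1 −2.31 and the plasminogen activator Plau −2.27. Of these, Itgb4 had the lowest level with both agents, at 0.983 CPM.

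With KU55933, 3 members were below their LPS level. Serpinf1 was at 3.69 CPM with LPS, 12.2 CPM with etoposide and 2.46 CPM with both agents, a share kept of −34.0%. Egr1, an immediate early transcription factor, was at 9.34, 36.5 and 8.69 CPM (−5.31%). Ankdd1b was at 2.10, 7.58 and 2.04 CPM (−2.29%). The log2 ratio of LPS+KU55933+etoposide to LPS was only −0.10 for Egr1 and −0.04 for Ankdd1b. Without a spread between replicates, the side of LPS on which these genes lie is not settled. The next lowest shares were those of Piwil2, a piRNA pathway protein (7.06%), the calcium binding protein S100a6 (10.6%), the lysophospholipid receptor Gpr55 (14.9%) and the CDK inhibitor Cdkn2b (16.5%).

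Members made up a larger share of the induced genes at low LPS levels than at high ones. Of 89 induced genes with 0.5 to under 1 CPM under LPS, 56 were members (62.9%). The share was 41.4% of 181 genes between 1 and 3 CPM, 42.5% of 181 between 3 and 10 CPM, and 24.7% of 235 genes at 10 CPM or more. The median KU55933 ratio of the members went from −1.25 in the lowest class to −0.93 in the highest. The rule used these values, so the order is a description of the members and not a test.

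Gene lists for the damage response and other pathways were written from general knowledge, with earlier results of these data known. Their shares are a description and no independent support. The 5 p53 lists mix p53 targets with regulators of p53, p53 itself (Trp53) and general repair genes. They held 93 different genes at the level limits, of which 38 were induced (40.9%, against 6.32% of all genes at the limits) and 9 were members. The members were thus 23.7% of the induced genes of these lists, against 38.8% of all induced genes. Of the 38, 36 (94.7%) were lower with KU55933, against 618 of all 686 induced genes (90.1%), and the median log2 ratios were −0.67 and −0.68. Most induced genes of these lists lay between 0 and the limit of −0.8.

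No member was among the 18 arrest and cell cycle genes at the level limits, against 2.45% of all genes at the limits. At this size, the lack of members is no result about the list. Of the 18 genes 9 were induced, against 6.32% of all genes at the limits. The highest of these, Ccng1, a cyclin and feedback target of p53, was at 224 CPM with LPS, 2203 CPM with etoposide and 1360.0 CPM with both agents (log2 KU55933 ratio −0.70). Cdkn1a, the CDK inhibitor p21, was at 16.2, 580.2 and 479.7 CPM (−0.27). Of 17 repair genes 4 were induced (23.5%) and none was a member, which at this size is no result about the list. The highest of the 4 was Ercc5, an excision repair nuclease, with a ratio of −0.45.

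Of 18 genes of the p53 death list, 11 were induced (61.1%, against 6.32% of all genes at the limits) and 3 were members (16.7%, against 2.45%). Pidd1, a scaffold that activates a caspase, was at 36.2 CPM with LPS, 324 CPM with etoposide and 184 CPM with both agents (log2 KU55933 ratio −0.82). Fas, the death receptor, was at 13.1, 111 and 62.2 CPM (−0.83). Both sat close to the limit, as did Ei24, the highest of the induced death genes outside it, at −0.77. Pmaip1, which encodes Noxa, was at 46.6, 292.6 and 276.6 CPM, a ratio of −0.08.

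Of 14 feedback genes 4 were induced (28.6%, against 6.32% of all genes at the limits) and 1 was a member (7.14%, against 2.45%). A count of 1 member among 14 genes is no result about the list. The member was Ppm1d, the phosphatase Wip1 that reverses ATM and p53 phosphorylation. It was at 34.3 CPM with LPS, 159 CPM with etoposide and 81.5 CPM with both agents (−0.96). Mdm2, the ubiquitin ligase of p53, had a ratio of −0.77. Of 28 genes of p53 metabolism and stress, 11 were induced (39.3%) and 5 were members (17.9%). Besides Crip2 and Sulf2 these were the proline breakdown enzyme Aldh4a1 (12.4, 117 and 61.7 CPM), the epoxide hydrolase Ephx1 (16.5, 153 and 85.3 CPM) and the phospholipase Abhd4 (21.8, 205 and 111 CPM).

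**Figure D4:**
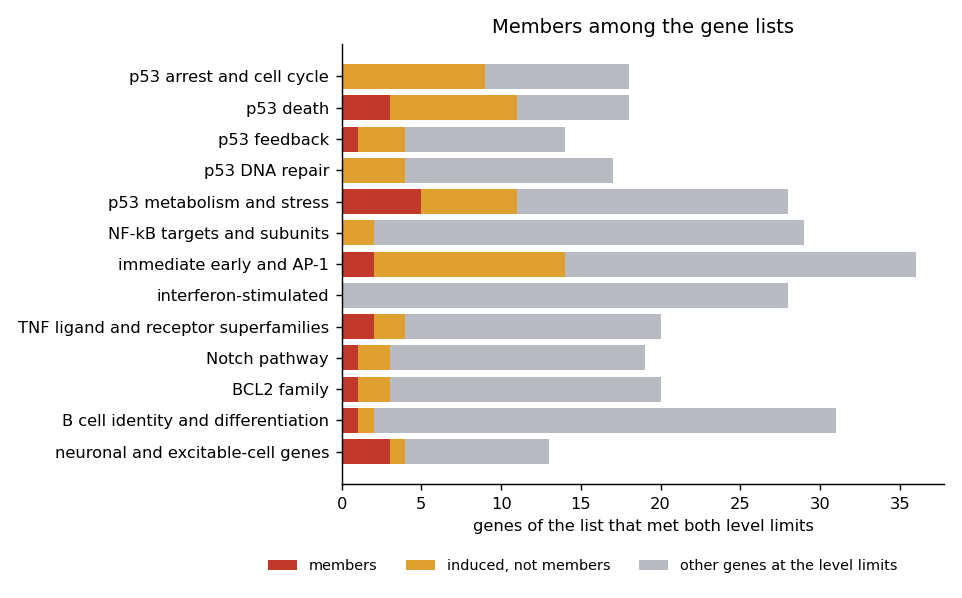
Bars give, for 13 gene lists, the number of genes at both level limits (x axis) that were members, induced but not members, or neither. The p53 lists for death and for metabolism and stress hold 3 and 5 members, and the arrest, repair, NF-kB and interferon lists hold none.

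The immediate early and AP-1 list held genes that moved either way with KU55933. Of its 36 genes 14 were induced (38.9%, against 6.32% of all genes at the limits) and 2 were members (5.56%, against 2.45%), Egr1 and Fosl1. A count of 2 members among 36 genes is no result about the list. Fosl1 was at 0.911 CPM with LPS, 14.5 CPM with etoposide and 2.90 CPM with both agents. The median KU55933 ratio of the 14 induced genes was 0.25, that is, above the level with etoposide alone. Fosl2, of the same family as Fosl1, was at 3.20, 25.7 and 69.7 CPM, a ratio of 1.44, and Fos was at 2.25, 36.0 and 40.0 CPM, a ratio of 0.15.

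Of 29 NF-kB targets and subunits 2 were induced (Icam1 and Nfkbid) and none was a member. None of 28 interferon-stimulated genes was induced, and their median KU55933 ratio was 0.67. In the TNF superfamilies 2 of 20 genes were members, Fas and Tnfrsf18, the receptor GITR, at 3.22, 15.6 and 8.94 CPM. In the Notch pathway 1 of 19 was a member, the ligand Jag2 at 2.32, 38.3 and 15.9 CPM. In the BCL2 family 1 of 20 was a member, Bcl2l15, at 1.80, 8.23 and 3.62 CPM. Of all genes at the limits 6.32% were induced and 2.45% were members, and with lists of 19 to 29 genes, counts of 0, 1 or 2 members are no result about these lists.

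Among 31 genes of B cell identity and differentiation 1 was a member (3.23%, against 2.45% of all genes at the limits), a count that is no result about the list. It was Sdc1, the syndecan that marks plasma cells, at 5.46 CPM with LPS, 84.3 CPM with etoposide and 28.3 CPM with both agents. The other plasma cell markers were lower with etoposide than with LPS. Prdm1 was at 93.1, 74.0 and 54.3 CPM and Xbp1 at 300.2, 229 and 242 CPM, and the 3 listed markers together were at 399, 388 and 324 CPM. The member Itga2b, an integrin subunit of platelets, was at 1.49, 16.4 and 7.94 CPM, beside the platelet markers Pf4 at 0.312, 0.319 and 0.599 CPM and Gp9 at 0.077, 0.208 and 0.254 CPM, whose part was not tested.

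Of 53 genes of neurons and excitable cells 40 were below the level limits. Of the 13 at the limits 4 were induced (30.8%, against 6.32% of all genes at the limits). The 3 members were 23.1%, against 2.45%, and with 13 genes these counts are no result about the list. The calcium channel subunit Cacna1b was at 3.36, 11.9 and 5.42 CPM, the RNA-binding protein Celf4 at 0.736, 6.99 and 1.65 CPM, and the adhesion protein Nlgn3 at 0.583, 4.19 and 1.97 CPM. By name, 7 of 176 solute carriers (3.98%), 6 of 279 Zfp zinc finger genes (2.15%) and 20 of 989 RIKEN and predicted genes (2.02%) were members, beside 2.45% of all genes at the limits. None of 28 kinesins and not the single histone gene at the limits was a member.

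By known function, 127 members were placed in 7 role groups after their values had been seen. In the group of 15 regulators of arrest, death and feedback, the median etoposide ratio was 2.52 and the median share kept 62.5%. Dffb, the nuclease that cuts DNA in apoptosis, was at 21.5 CPM with LPS, 169 CPM with etoposide and 81.4 CPM with both agents. Zfp385a, a p53-binding zinc finger protein, was at 8.27, 227 and 94.8 CPM. Dab2ip, a Ras GTPase activator, was at 9.61, 42.3 and 13.8 CPM and kept 24.6%, while Cdkn2b was at 2.86, 8.55 and 3.43 CPM.

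Metabolic and redox enzymes formed the largest group with 26 members, a median etoposide ratio of 2.47 and a median share kept of 55.6%. Acad8, an acyl-CoA dehydrogenase of valine breakdown, was at 5.47, 79.4 and 40.9 CPM. Gss, which makes glutathione, was at 15.1, 82.5 and 38.0 CPM, and Plod2, a lysyl hydroxylase of collagen, at 4.52, 73.9 and 23.0 CPM. The lowest share was 28.6% for Cds1, a phospholipid synthesis enzyme, at 2.04, 10.4 and 3.25 CPM.

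Secreted and matrix proteins (18 members) had a median etoposide ratio of 3.26 and a median KU55933 ratio of −1.35. Csf1, the macrophage growth factor, was at 6.74, 80.8 and 40.0 CPM, and the protease inhibitor Serpine2 at 4.30, 93.1 and 30.5 CPM. Bmp1, a procollagen protease, was at 2.07, 42.2 and 11.0 CPM, and the proteoglycan Vcan at 0.572, 6.11 and 2.89 CPM. Of the stromal markers, Col1a1 was at most 0.482 CPM and Col3a1 at most 0.012 CPM in any group, while Pdgfrb was at 0.520, 2.88 and 0.886 CPM. All 5 summed to 147, 49.8 and 86.2 CPM, of which Pecam1, which B cells also express, made up 144, 45.3 and 84.3 CPM. Their part in the levels of the secreted genes was not tested.

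Surface receptors and ligands (21 members) had the highest median etoposide ratio, 3.37, with a median share kept of 60.1%. P2rx7 was at 1.43, 55.5 and 17.3 CPM and Gpr55 at 13.8, 57.3 and 17.1 CPM. The ephrins Efnb2 and Efna1 were at 0.625, 18.7 and 9.03 CPM and at 0.626, 7.01 and 1.74 CPM and kept 78.6% and 42.4%. The related receptor kinases Axl and Tyro3 were at 2.79, 14.6 and 5.01 CPM and at 1.61, 5.93 and 2.44 CPM and kept 35.3% and 32.0%. The 6 macrophage markers summed to 16.5, 20.2 and 19.2 CPM, and their part in these results was not tested. Among them Cd68 was at 4.12, 9.12 and 7.79 CPM and Cd14 at 0.204, 1.04 and 1.81 CPM, whereas Itgam was at 8.69, 5.56 and 5.11 CPM and Csf1r at most 0.446 CPM.

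Of 14 transporters and channels, the median etoposide ratio was 2.71 and the median share kept 61.9%. The zinc transporter Slc39a14 was at 35.0, 137 and 71.8 CPM, the sugar phosphate carrier Slc37a2 at 18.7, 121 and 60.6 CPM, and the mitochondrial coenzyme A carrier Slc25a42 at 14.4, 80.8 and 44.3 CPM. Small GTPases and their regulators (17 members) had medians of 2.97 and 55.8%. Rap2b was at 9.60, 75.3 and 41.5 CPM and kept 71.1%, whereas Rnd2 was at 0.722, 4.76 and 1.05 CPM and kept 19.9%.

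Transcription factors and DNA regulators (16 members) had a median etoposide ratio of 2.57 and a median share kept of 54.7%. The bZIP factor Tef was at 37.5, 219.7 and 119 CPM and the Myb family member Mybl1 at 18.3, 169.9 and 83.5 CPM. Csrnp2 was at 4.15, 78.8 and 42.5 CPM and kept 79.0%. Tet1, which oxidizes methylcytosine, was at 8.03, 28.4 and 10.6 CPM and kept 21.7%. The medians of the share kept lay between 54.7% and 62.5% in all 7 groups.

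**Figure D5:**
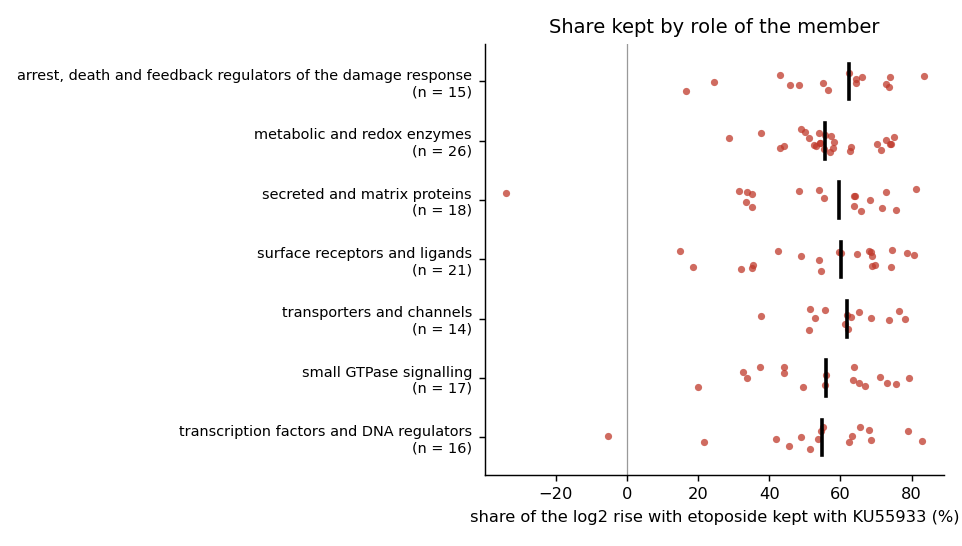
Share of the log2 etoposide ratio kept with KU55933 (x axis, percent) for each member of the 7 role groups, 1 point per gene with random vertical offset and a black bar at the median. The medians lie between 54.7% and 62.5%, and Serpinf1 at −34.0% and Egr1 at −5.31% lie below 0.

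In the GENCODE M21 annotation of GRCm38, 265 of the 266 members were found, on 20 chromosomes. Protein-coding genes made up 94.7% of them, against 92.6% of the other induced genes and 91.7% of all genes at the level limits. The median exonic length was 4528 bases, against 4060 and 4414 bases, and the median genomic span 23700 bases, against 16979 and 21662 bases. There were 6 pairs of members within 20 kb of each other, among them Acad8 and Thyn1, 143 bases apart on chromosome 9, and Rap2b and Gm37696, which overlap on opposite strands of chromosome 3. In all, 44 members overlap another gene at the level limits, 40 of them a gene on the opposite strand. For 5 of them the other gene was also induced (Clcn2, Snx16, Gm16314, Rap2b and Gm37696). The library kit marks strand, but the strand setting used in counting is not given in the sources used here, so the values of overlapping genes are uncertain, as are those of similar zinc finger genes such as Zfp457 and Zfp459.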

How the data were processed

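Total mRNA of 12 libraries was sequenced from a strand-marking kit. The authors trimmed reads with Trim Galore and cutadapt 1.2.1, mapped them to GRCm38 with TopHat2 2.0.12, used HTSeq with the Ensembl annotation to count them, and fitted the counts with DESeq2 1.6.3. The deposited values are a signal per gene and library, named normalized counts, which is the mean fitted for the group times a factor per library and therefore holds no spread between replicates, and fitted ratios of weakly expressed genes may be drawn toward 0. Deposited comparison files with fold changes, standard errors and p-values were not used. Each column was divided by its sum and multiplied by 1000000, and no pseudocount was added (0). The steps were tested on simulated data. Python 3.11.15, numpy 2.4.6, pandas 2.3.3 and matplotlib 3.10.9 were used, with GENCODE M21 and RefSeq annotation of GRCm38.

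The members and gene lists were chosen with earlier results of these data known, and role groups after the values were seen. The genes named by rule are all members in a list, the 10 highest with etoposide, the 10 largest and 10 lowest ratios, the 5 highest and 5 lowest shares kept, the genes next to each limit, and the highest induced gene of each list that is no member. Other genes named as examples were chosen after their values were seen. The values of 1 gene that the rule names are not reported here. Alternatives were 3 other scalings, other level limits, a pseudocount, other limits on the ratios, leaving out each library, and other mismatch limits.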

Additional observations from a re-analysis of the deposited data

How the results depend on the processing

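Under median-of-ratios factors, TMM factors and quantile normalization the rule gave 243, 311 and 263 members, of which 239, 262 and 226 were among the 266, and the median share kept over the 266 was 50.9%, 51.6% and 48.7%. Under these 3 scalings 534, 648 and 556 genes were induced, against 686 in the main setting. The members were 45.5%, 48.0% and 47.3% of these induced genes, against 38.8%. The share was between 34.1% and 49.1% under the other level and ratio limits and the added constant. The scalings moved the median etoposide ratio of all genes at the level limits by −0.22, −0.06 and −0.11 on the log2 scale. With 0.5 CPM added to each mean there were 248 members. The number changed most with the limits. It was 1071 with no minimum level, 156 with at least 2 CPM under LPS and 10 CPM with etoposide, 587 with ratio limits of 1 and −0.5, and 142 with limits of 2 and −1. Leaving out any library gave 266 members, 38.8% of induced genes and a median share kept of 55.8%, which the construction of the table fixes and which says nothing about stability. The share of member promoter windows with a p53 element was 0% at 1 mismatch and 19.2% at 3 mismatches, against 0.627% and 15.6% of all windows. That comparison is void for the reason given above. Wider windows around the start were not run, since they need a genome sequence. No paired analysis was possible because the fitted means hold no differences between libraries of a group.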

Other observations

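Among the 686 induced genes, 618 were lower and 68 higher with KU55933 and etoposide than with etoposide alone, with column sums as the scaling. In 11 of the 68 the log2 ratio was at least 0.8, the mirror image of the members. Cish, a suppressor of cytokine signalling, was at 2.50 CPM with LPS, 17.3 CPM with etoposide and 57.7 CPM with both agents, a KU55933 ratio of 1.74. The cyclic AMP response factor Crem was at 30.3, 104.6 and 259 CPM (1.31), and Ppp1r15a, a phosphatase subunit of the integrated stress response, at 50.4, 150.5 and 354 CPM (1.23). Of the immediate early and AP-1 list, Fosl2, Ier5l and Nr4a2 were among the 11, with ratios of 1.44, 1.00 and 0.89. The others were Grasp, Gadd45b, Bzrap1, Gm37176 and Gm26917, with ratios from 0.82 for Bzrap1 to 1.45 for Grasp. These genes were chosen after their values were seen, and were not tested.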
